A study of Drosophila melanogaster with 19 samples.

Results

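The Polycomb group genes considered here are Pc, ph-p, ph-d, Psc, Sce, E(z), esc, Su(z)12, pho and Scm of Drosophila melanogaster. They are the 10 rows that carry these symbols among the 17735 genes of the deposited table, found by symbol. RNA was sequenced from single early embryos, to ask how transcripts change as the blastoderm cycles proceed and how they change when those cycles are stopped. The arrested embryos were injected with double-stranded RNA against CycA, CycB and CycB3, the 3 mitotic cyclins, were held in cycle 12, and were collected 15, 30, 50 and 70 minutes after the mitosis that opens that cycle. The control embryos were not injected and were collected in cycle 12 (control C12), cycle 13 (control C13), early cycle 14 (control C14E) and late cycle 14 (control C14L). All embryos came from flies that carry a red fluorescent histone, H2AvD-RFP, and the arrested embryos of this experiment did not receive the Cdk1 inhibitor Frs. No mock-injected embryo is among the 8 conditions, so the injection and the arrest cannot be told apart. Embryos arrested for 30, 50 or 70 minutes were also older than control C12. In comparisons with control C12, elapsed time and the arrest therefore cannot be told apart either. Control C14L is 2 nuclear cycles further on than control C12 and older than arrested C12-70min, so any difference between these 2 conditions includes one of age.

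Polycomb group proteins keep developmental genes silent, best known for the homeotic genes, which give the body segments their identity. PRC2, built around the methyltransferase E(z) with esc and Su(z)12, methylates lysine 27 of histone H3 (H3K27). PRC1, which holds Pc, a Polyhomeotic protein, Psc and Sce, compacts chromatin, and the DNA-binding protein pho helps to bring the complexes to Polycomb response elements. The egg is loaded with transcripts of many of these genes, and the embryo transcribes its own copies once the zygotic genome becomes active, so that a level in a whole embryo sums the maternal and the zygotic RNA.

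Each column of the table is the authors' mean over the embryos of 1 condition, in CPM, a gene's reads scaled to a fixed library size, and is given without an SD. The columns stand for 18 embryos, 3 each in control C13 and control C14E and 2 in each of the other 6 conditions. In those 6 conditions the whole reads of both embryos could be solved for from the decimals of the mean, and they are given below as the embryo with the deeper and the embryo with the shallower library. Assigned reads ran from 39242409 to 52804462 in the arrested embryos and from 35957712 to 57998963 in the control embryos. As a check of the labels, CycA had means of 1799, 14.2, 13.4 and 28.8 CPM in arrested embryos at 15, 30, 50 and 70 minutes, against 2626 CPM in control C12. CycB and CycB3 were likewise low from 30 minutes on and near control C12 at 15 minutes, so the earliest arrested condition is called the libraries labelled C12-15min. Summed over osk, nos, pgc, gcl and vas, RNAs of the maternal germ plasm, the means were 745, 220, 146 and 197 CPM at 15, 30, 50 and 70 minutes of arrest, and 740, 434, 170 and 94.0 CPM in control C12, C13, C14E and C14L. The sum was therefore lower in the same later conditions in which the genes below differed. The largest part of it in control C12 was gcl, with 419 CPM. From 30 minutes of arrest on and after cycle 12 in the controls, osk, pgc, gcl and vas were each below control C12. The exception was nos, with 107 CPM in control C12 and 120 CPM at 70 minutes of arrest, where it was not lower. In control C13, C14E and C14L nos had 63.5, 97.2 and 30.7 CPM, and at 30 and 50 minutes of arrest 64.8 and 71.5 CPM. The part of these RNAs in the differences was not tested. In RNA of a whole embryo, fewer cells that hold a transcript and less of it per cell cannot be told apart.

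The 10 genes spanned a wide range of levels. Per kilobase of exon, which allows genes to be set beside each other, pho led in arrested C12-70min with 141 CPM per kilobase and Sce followed with 107, while ph-d was last with 3.65 and esc stood at 4.56. In control C14L Su(z)12 led with 90.4 CPM per kilobase, ahead of esc with 71.5, Sce with 67.3 and E(z) with 51.8, and Psc was last with 14.7. In control C12 the order was another one, downwards from Sce with 77.9 CPM per kilobase through esc with 75.5, pho with 68.2, Scm with 45.4, Psc with 15.8, ph-d with 8.46, Su(z)12 with 8.41, Pc with 6.77 and E(z) with 2.12 to ph-p with 0.582 CPM per kilobase. Sce and esc at its head, and ph-d and Su(z)12 within it, lay closer to each other than the 2 control C12 embryos of esc or of Su(z)12 lay to one another. The gene with the largest range over the 8 means was ph-p, 6.21 on the log2 scale, and the one with the smallest was Sce, 0.70.

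**Figure D1:**
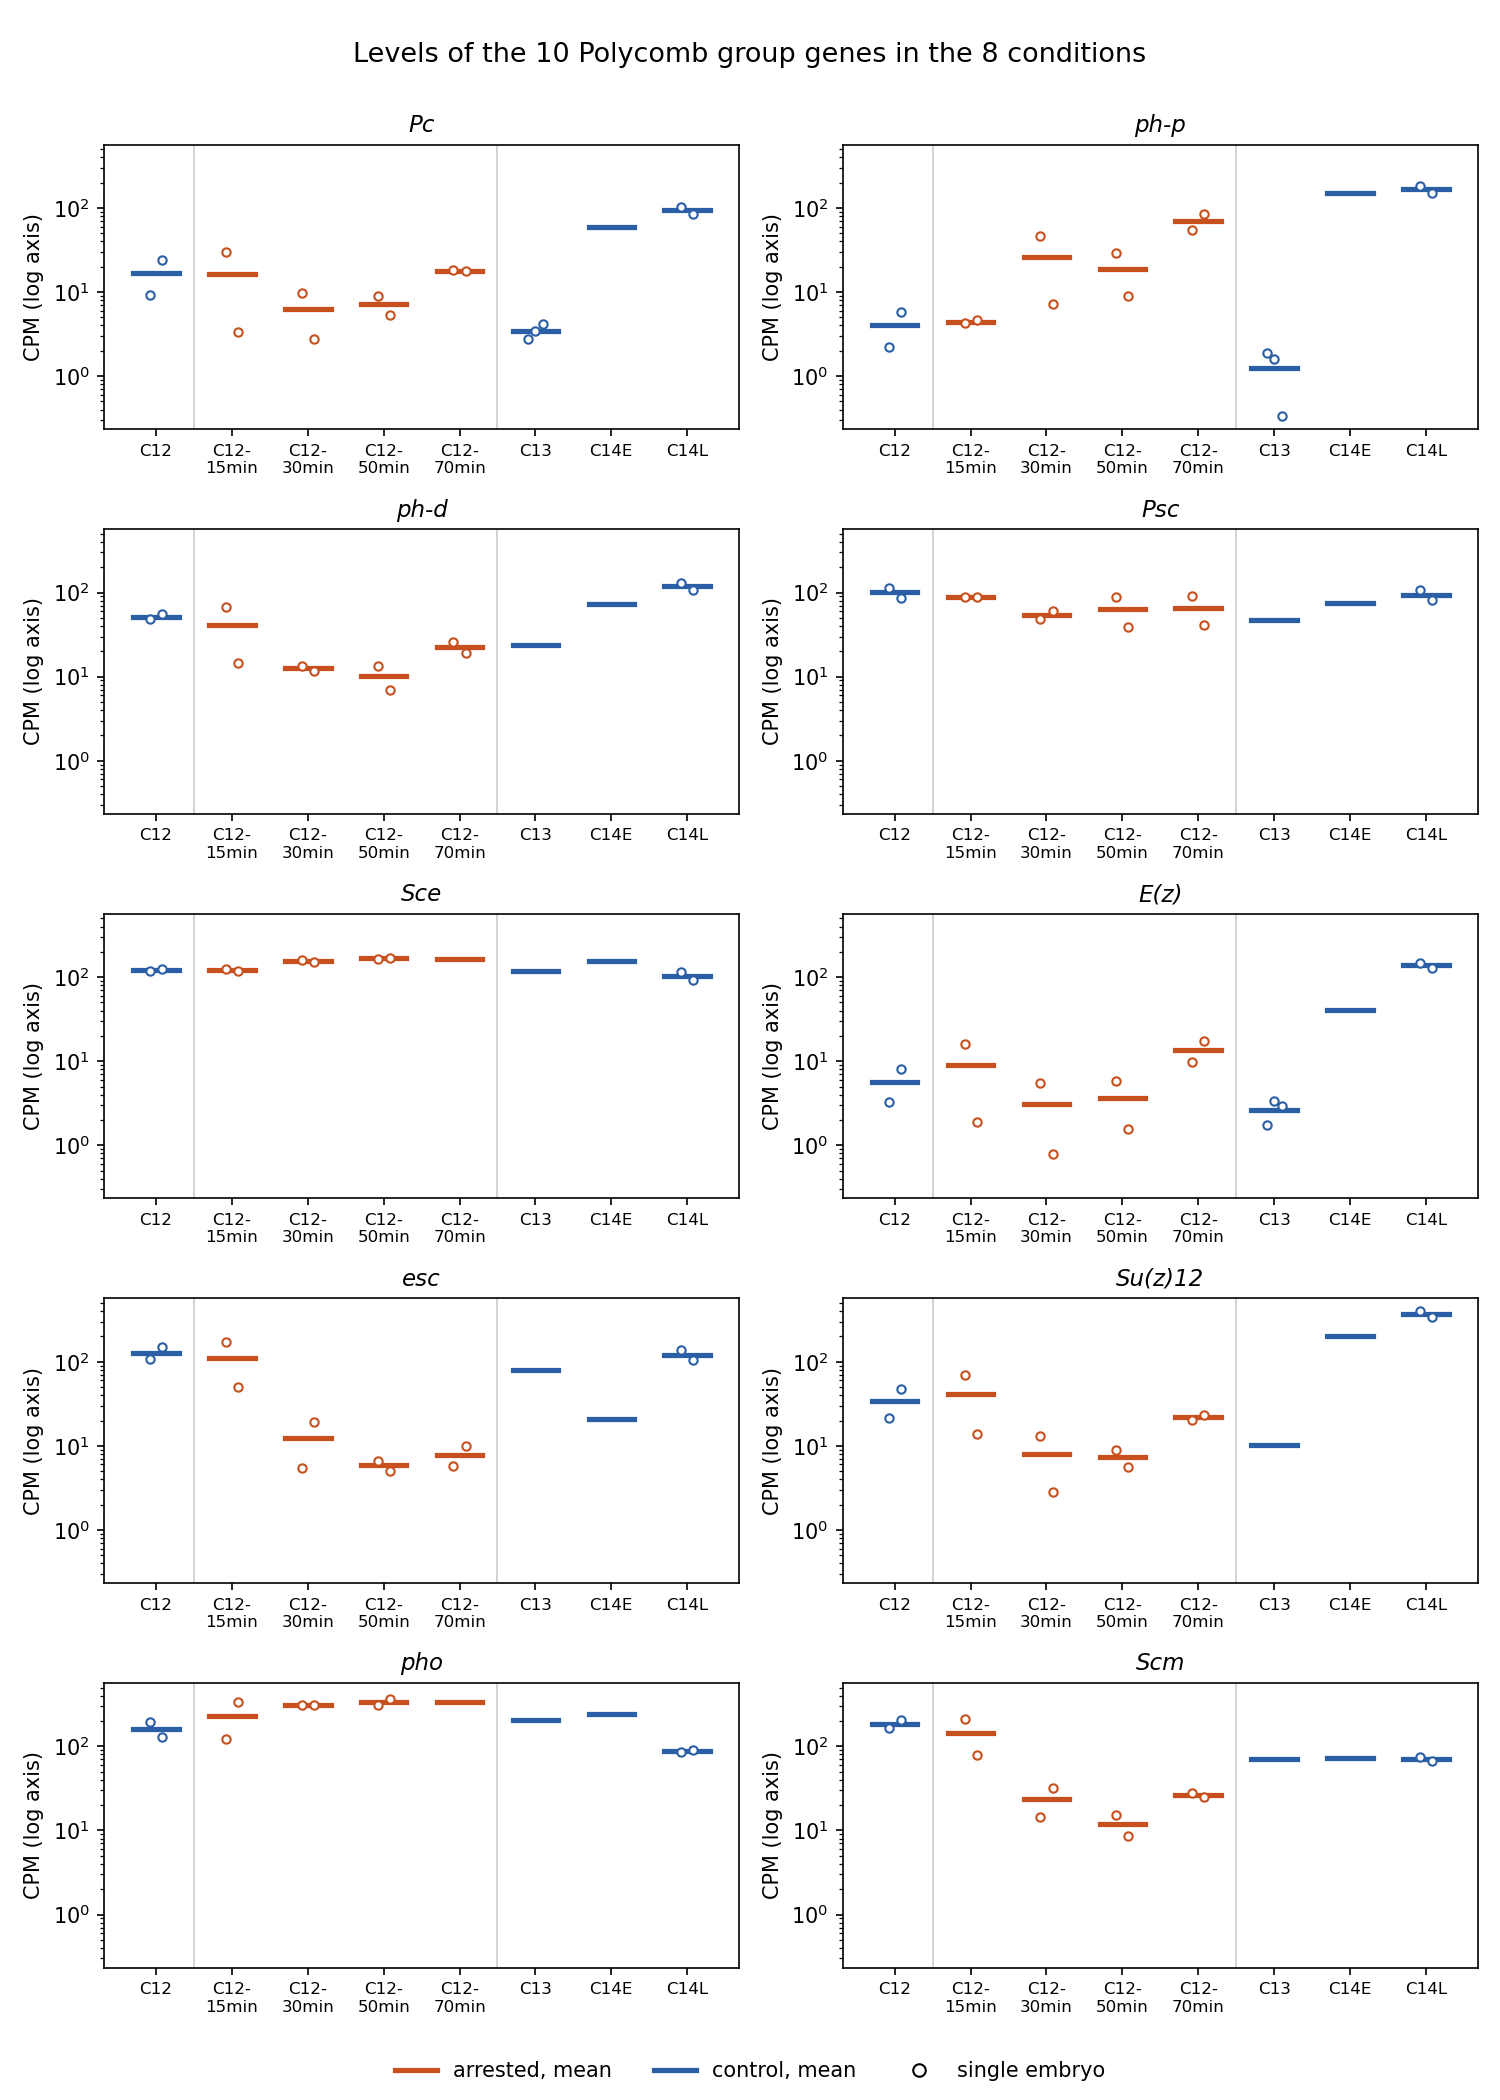
Level of each of the 10 genes in CPM on a log axis with the same limits in every panel, with control C12 at the left, the 4 arrested conditions in the middle and the 3 later control conditions at the right. Bars are the authors' condition means and circles are single embryos where their reads could be solved for. Sce stays within 104 to 169 CPM, whereas ph-p spans 1.27 to 167 CPM.

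Pc encodes the chromodomain protein that reads methylated H3K27 within PRC1. The gene lies on chromosome 3L, 21306138 to 21318020, on the minus strand of dm6. Its means were 16.5, 6.27, 7.16 and 18.0 CPM at 15, 30, 50 and 70 minutes of arrest. In control C12, C13, C14E and C14L they were 16.7, 3.46, 58.7 and 94.1 CPM. The arrested means thus dipped at 30 and 50 minutes and at 70 minutes stood at 108% of control C12, while the control means dipped at cycle 13 and were high in cycle 14. The 3 control C13 embryos had 2.77, 3.42 and 4.20 CPM, against 9.33 and 24.0 CPM in the deeper and shallower control C12 embryos, so the 2 groups did not overlap. The arrested embryos had 9.78 and 2.75 CPM at 30 minutes, which overlaps control C12, and 9.04 and 5.27 CPM at 50 minutes. Neither time passed limma against control C12 (adjusted p = 0.265 and 0.354). The control C14L embryos had 104 and 84.2 CPM, which put this mean 5.64-fold above control C12. That difference passed limma (log2 difference 2.56, SE 0.89, adjusted p = 0.0373). The call is fragile: it was lost on leaving out either embryo of control C12, control C14L, arrested C12-50min or arrested C12-70min, with adjusted p between 0.0508 and 0.196. At 70 minutes of arrest the 2 embryos were close to one another, at 18.2 and 17.8 CPM, and both lay below the 2 control C14L embryos. The difference of Pc between arrested C12-70min and control C14L was 5.23-fold downwards, and it missed the threshold (log2 difference -2.32, SE 0.89, adjusted p = 0.0596). Exons of Pc share 60 bases with CG7632 on the other strand, which had 4.84 to 42.7 CPM, and whether the counting used strand is not given in the sources used here.

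The paired genes ph-p and ph-d both encode Polyhomeotic, the PRC1 subunit with a SAM domain through which the complex polymerises. They lie side by side on chromosome X on the minus strand of dm6, ph-d at 2115727 to 2123286 and ph-p at 2126210 to 2138371, with 2923 bases and no other annotated gene between them. For ph-p the arrested means were 4.41, 26.4, 19.0 and 70.5 CPM at 15, 30, 50 and 70 minutes, and the control means were 4.01, 1.27, 150 and 167 CPM in C12, C13, C14E and C14L. For ph-d the arrested means were 41.2, 12.5, 10.1 and 22.4 CPM, and the control means were 51.8, 23.6, 72.9 and 120 CPM, in the same order. In control C12 ph-d was therefore the higher of the pair, also per kilobase, and in control C14E and C14L ph-p was. Per the paper only uniquely aligned reads were counted, and whether either gene lost reads to sequence shared by the pair was not tested. The arrested embryos held a higher ph-p level than control C12 from 30 minutes on and a lower ph-d level over the same times.

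By embryo, ph-p had 55.2 and 85.8 CPM in arrested C12-70min, against 2.21 and 5.81 CPM in control C12. Both arrested embryos were far above both controls, and the mean was 17.6-fold higher. The difference passed limma (log2 difference 3.90, SE 0.82, adjusted p = 0.00452), and it kept the call on leaving out any of the 12 embryos in turn. At 30 minutes the 2 embryos were 45.8 and 7.12 CPM, and at 50 minutes 29.0 and 9.05 CPM. All 4 were above both control C12 embryos, but they spread widely, and neither time passed the test (adjusted p = 0.0922 at 30 minutes and 0.0872 at 50 minutes). Without the shallower C12-30min embryo the 30-minute difference passed (adjusted p = 0.0153), and without either C12-30min embryo the 50-minute one did (0.0319 and 0.0332). In control C14L ph-p had 184 and 150 CPM, 41.6-fold above control C12 (log2 difference 5.16, SE 0.82, adjusted p = 0.000836 in limma), and this too kept the call without any 1 embryo. Against control C14L, ph-p at 70 minutes stood at 42.2%, with the arrested embryos below both controls, and the difference did not pass (log2 difference -1.26, SE 0.82, adjusted p = 0.225).

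For ph-d the 2 embryos of arrested C12-50min had 13.3 and 6.88 CPM, against 48.5 and 55.1 CPM in control C12. The embryos did not overlap, the mean was 5.14-fold lower, and the fall passed limma (log2 difference -2.31, SE 0.61, adjusted p = 0.0188). It was lost without either control C12 embryo or without the shallower arrested C12-50min embryo, with adjusted p between 0.0629 and 0.110. At 70 minutes ph-d had 25.8 and 18.9 CPM, against 131 and 108 CPM in control C14L. The 5.35-fold lower mean passed limma (log2 difference -2.38, SE 0.61, adjusted p = 0.0140), and leaving out any 1 of these 4 embryos gave an adjusted p between 0.0530 and 0.0860. Its control C14L level was 2.31-fold above control C12, which did not pass (log2 difference 1.19, SE 0.61, adjusted p = 0.131).

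The other PRC1 genes varied less over the conditions. Psc, a RING finger protein that partners Sce, lies on chromosome 2R at 12965997 to 12980994. It had means of 88.2, 54.3, 64.0 and 66.0 CPM at 15, 30, 50 and 70 minutes of arrest, and 100.2, 47.6, 75.2 and 93.4 CPM in control C12, C13, C14E and C14L. Its lowest mean was control C13, and the embryos of arrested C12-70min, 91.2 and 40.8 CPM, spread over a range that overlaps the control C12 embryos of 114 and 86.8 CPM. No tested comparison of Psc passed limma.

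Sce, the RING finger ubiquitin ligase that modifies histone H2A, lies on chromosome 3R at 27680431 to 27682029. Its means were 122, 156, 169 and 166 CPM at 15, 30, 50 and 70 minutes of arrest, and 120.2, 119.9, 157 and 104 CPM in control C12, C13, C14E and C14L. In arrested C12-50min its embryos had 167 and 171 CPM, against 117 and 124 CPM in control C12. This 1.40-fold higher level lay under the fold of 1.5 used for the means but passed limma (log2 difference 0.49, SE 0.16, adjusted p = 0.0391). Leaving out any 1 of those 4 embryos lost the call, with adjusted p between 0.108 and 0.148. At 70 minutes 2 whole-read solutions fit the Sce mean, so its embryos were left out of the test there. That mean was 159.8% of the control C14L mean.

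Of the PRC2 genes, E(z) and Su(z)12 shared a course in the controls, low in C12 and C13 and high in cycle 14, while esc took another. The PRC1 genes Pc and ph-p were likewise lower in control C12 and C13 than in cycle 14. E(z), the methyltransferase itself, lies on chromosome 3L at 10634575 to 10638130. Its means were 8.94, 3.11, 3.70 and 13.7 CPM at 15, 30, 50 and 70 minutes of arrest, and 5.66, 2.66, 41.1 and 138 CPM in control C12, C13, C14E and C14L. The control C14L embryos had 147 and 129 CPM, against 3.31 and 8.01 CPM in control C12 and 1.73, 3.33 and 2.92 CPM in control C13. The 24.4-fold higher level in C14L passed limma (log2 difference 4.48, SE 0.94, adjusted p = 0.00378) and held without any 1 embryo. At 70 minutes of arrest E(z) had 9.79 and 17.6 CPM. Both embryos lay above both control C12 embryos, yet the 2.42-fold higher mean did not pass (log2 difference 1.19, SE 0.94, adjusted p = 0.303). Against control C14L the arrested mean stood at 9.92%, and this fall passed (log2 difference -3.29, SE 0.94, adjusted p = 0.0211), but not without any 1 of the 4 embryos concerned (adjusted p between 0.0571 and 0.113). Exons of E(z) share 38 bases with CG34001 on the other strand.

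Su(z)12, the zinc finger subunit of PRC2, lies on chromosome 3L at 19918242 to 19923462. At 15, 30, 50 and 70 minutes of arrest its means were 41.8, 7.99, 7.28 and 21.9 CPM. In control C12, C13, C14E and C14L they were 34.4, 10.1, 203 and 371 CPM, and the last of these is the highest C14L level of the 10 genes per kilobase. Arrested embryos at 70 minutes had 20.5 and 23.3 CPM, against 399 and 342 CPM in control C14L. These 2 groups were far apart, 16.9-fold, and the fall passed limma (log2 difference -4.02, SE 0.80, adjusted p = 0.00522) with each of the 12 embryos left out in turn. The control C14L embryos were likewise above those of control C12, which had 21.4 and 47.5 CPM (10.8-fold, log2 difference 3.49, SE 0.80, adjusted p = 0.00596), again in every leave-one-out fit. The levels of 13.2 and 2.80 CPM at 30 minutes and of 8.98 and 5.58 CPM at 50 minutes all lay under both control C12 embryos and did not pass (adjusted p = 0.0781 and 0.0692). They did so without either C12-15min embryo, and the 50-minute one also without either C12-30min embryo, with adjusted p between 0.0252 and 0.0473. At 70 minutes the level was within 1.57-fold of control C12, and centring the columns on the median of abundant genes turned its log2 difference of -0.63 to 0.025.

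esc encodes the WD repeat subunit of PRC2 that binds methylated H3K27 and stimulates the enzyme. The gene lies on chromosome 2L at 11827204 to 11829405. In the arrested embryos its means were 111, 12.4, 5.85 and 7.77 CPM at 15, 30, 50 and 70 minutes, low to the end. The means of control C12, C13, C14E and C14L were 129, 79.8, 20.9 and 122 CPM, with a dip in early cycle 14 and a level in late cycle 14 near that of control C12. By embryo, esc had 5.70 and 9.83 CPM in arrested C12-70min, against 108 and 149 CPM in control C12. The 16.6-fold lower mean passed limma (log2 difference -3.91, SE 0.66, adjusted p = 0.00213). Set against the control C14L embryos, which had 138 and 106 CPM, the arrested embryos were 15.7-fold lower (log2 difference -3.84, SE 0.66, adjusted p = 0.00264). Both calls held without any 1 of the 12 embryos. The lower levels at 30 minutes, 5.47 and 19.4 CPM, and at 50 minutes, 6.62 and 5.08 CPM, also passed (adjusted p = 0.0314 and 0.00549). At 30 minutes the call was lost without the deeper arrested C12-30min embryo or without either embryo of control C12, control C14L or arrested C12-70min, with adjusted p between 0.0556 and 0.227. At 50 minutes it was lost only without the shallower control C12 embryo (adjusted p = 0.0583). Among the 10 genes esc was the one furthest below control C12 at 30, 50 and 70 minutes of arrest.

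pho, the YY1-related protein that binds DNA at Polycomb response elements, lies on chromosome 4 at 1172469 to 1181628. In the arrested embryos its means were 230.2, 311, 336 and 336 CPM at 15, 30, 50 and 70 minutes. They were 162, 207, 242 and 88.8 CPM in control C12, C13, C14E and C14L. Embryos of arrested C12-50min had 306 and 366 CPM, against 196 and 129 CPM in control C12, and did not overlap them. The 2.07-fold higher mean did not pass limma (log2 difference 1.07, SE 0.42, adjusted p = 0.0723), though it did without either embryo of C12-15min (0.00610 and 0.00623 in limma). At 70 minutes the pho mean was 378% of that in control C14L, whose embryos had 86.0 and 91.5 CPM. Here 5 whole-read solutions fit the arrested mean, so this difference has no test.

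Scm, a SAM domain protein that associates with PRC1 and with the pho partner Sfmbt, lies on chromosome 3R at 9633359 to 9637611. Its arrested means were 144, 23.5, 11.9 and 26.5 CPM at 15, 30, 50 and 70 minutes. The control means were 185, 70.3, 72.6 and 70.5 CPM in C12, C13, C14E and C14L, lower after cycle 12 and then level, but not as low as those of the arrested embryos from 30 minutes on. By embryo, Scm had 28.0 and 25.1 CPM in arrested C12-70min, against 166 and 203 CPM in control C12. That fall of 6.97-fold passed limma (log2 difference -2.75, SE 0.50, adjusted p = 0.00265) without any 1 of the 12 embryos as well. At 50 minutes, with 15.2 and 8.51 CPM, the fall was 15.6-fold (log2 difference -3.90, SE 0.50, adjusted p = 0.00530) and was lost only without the shallower control C12 embryo (adjusted p = 0.0583). At 30 minutes, with 14.6 and 32.4 CPM, it passed with adjusted p = 0.0314, and was lost without the same 7 embryos as the esc call, with adjusted p between 0.0556 and 0.227.

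Scm was also lower in arrested C12-70min than in control C14L, whose embryos had 74.2 and 66.8 CPM (log2 difference -1.38, SE 0.50, adjusted p = 0.0488). It was lower in control C14L than in control C12 as well (log2 difference -1.37, SE 0.50, adjusted p = 0.0436). Both stand near the threshold. The first was lost without either embryo of arrested C12-50min, arrested C12-70min, control C12 or control C14L, with adjusted p between 0.0527 and 0.177. The second was lost without either embryo of control C12, control C14L or arrested C12-70min, with adjusted p between 0.0628 and 0.168. Exons of Scm share 315 bases, 7.74% of their length, with SpdS on the other strand, which had 1.10 to 3.45 CPM in every condition.

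**Figure D2:**
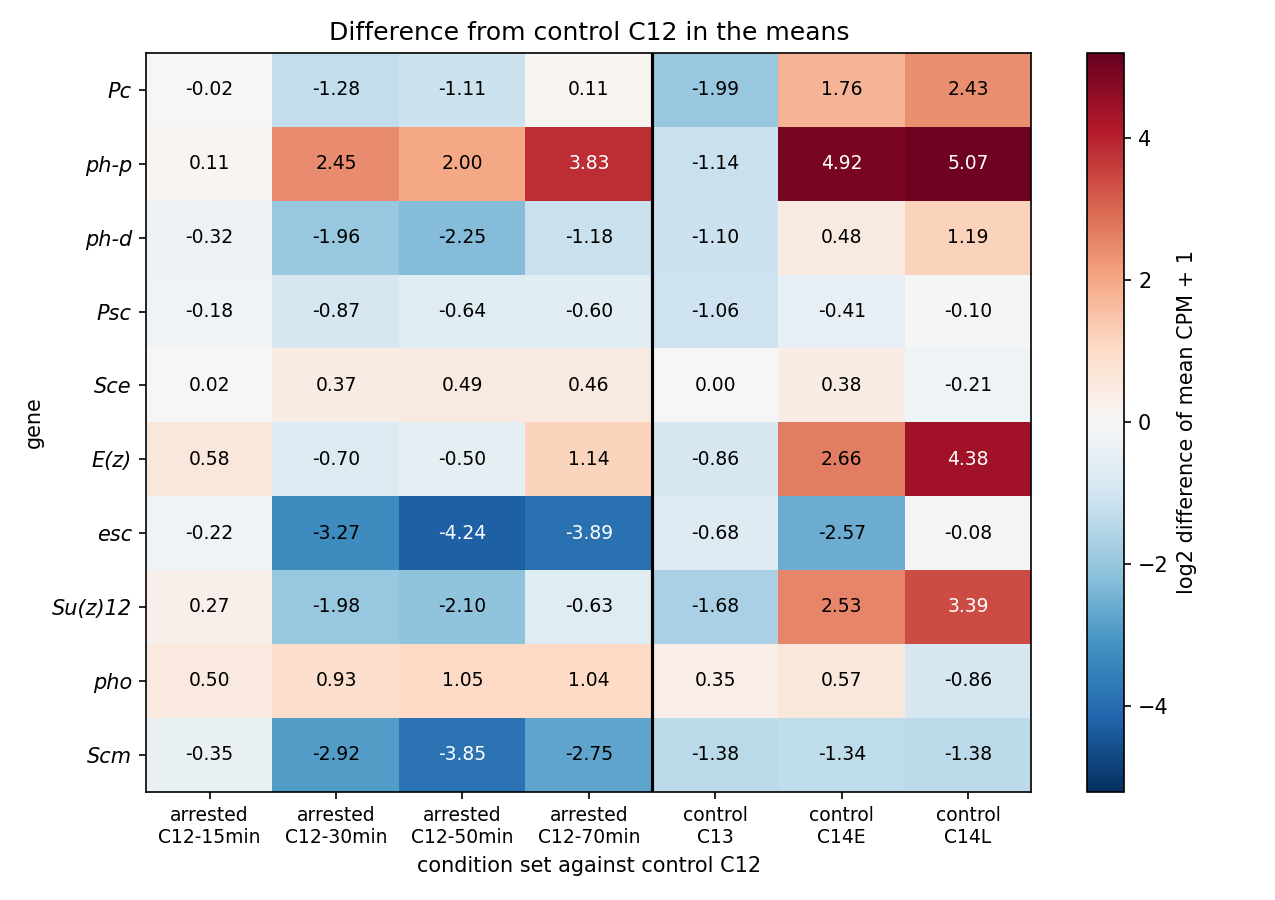
Log2 difference of mean CPM plus 1 from control C12 for the 10 genes (rows) in the 4 arrested and the 3 later control conditions (columns), red for higher and blue for lower than control C12. All columns share control C12. The deepest blue is esc at 50 minutes of arrest (-4.24) and the deepest red is ph-p in control C14L (5.07).

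Counted over the means, with a gene called past a fold of 1.5 on the log2(CPM + 1) scale, control C13 stood below control C12 for 8 of the 10 genes and above it for 0. Sce and pho were the exceptions. Of all 7348 genes with a mean of at least 1 CPM, 25.9% were lower and 9.83% were higher in this comparison, and the median log2 difference was -1.08 over the 10 genes and -0.12 over all genes. In control C14E 4 were higher (Pc, ph-p, E(z) and Su(z)12) and 2 lower (esc and Scm), beside 23.1% higher and 39.3% lower of all genes. In control C14L 5 were higher, the same 4 with ph-d, and 2 were lower, pho and Scm, beside 32.9% higher and 37.8% lower of all genes. Between control C14L and control C14E, 5 genes were higher, Pc, ph-d, E(z), esc and Su(z)12, and Sce and pho were lower, beside 38.8% higher and 21.6% lower of all genes. esc had the steepest of these differences, 5.84-fold.

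These calls depend on how the columns are scaled, since the median of 3737 abundant genes lay 0.44 lower in control C14E and 0.56 lower in control C14L than in control C12 on the log2 scale. With the columns centred on it, 7 were higher and 2 lower in control C14E, with 40.8% higher and 30.0% lower of all genes. In control C14L it was 5 higher and 1 lower, with 47.6% and 26.6%. The limma fit over single embryos called 4 genes higher (Pc, ph-p, E(z) and Su(z)12) and 1 lower (Scm) in control C14L than in control C12, against 24.5% higher and 28.8% lower of the 6681 genes it tested.

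In the libraries labelled C12-15min 0 of the 10 genes passed the fold in either direction, beside 6.38% higher and 1.61% lower of all genes. limma called 0 of the 10 here (0% of 6674 genes in either direction), and at an unadjusted p under 0.05 it had 0 of the 10 and 17 genes of all. The 2 embryos of this condition differed widely from each other for 7 of the 10 genes. They were alike for Psc (88.0 and 88.4 CPM), ph-p (4.23 and 4.59 CPM) and Sce (127 and 118 CPM). In the deeper library Pc had 29.6, ph-d 67.8, E(z) 16.0, esc 171, Su(z)12 69.7 and Scm 209 CPM, and in the shallower one Pc had 3.36, ph-d 14.5, E(z) 1.89, esc 50.3, Su(z)12 13.9 and Scm 79.9 CPM. For pho the order of the 2 embryos was the opposite, with 123 CPM in the deeper and 338 CPM in the shallower library. For each of these 7 genes the shallower library lay away from the control C12 mean in the direction of the 30-minute mean, and the deeper one did not, so the means of this condition average unlike embryos. The limma fit shares 1 estimate of the spread, and leaving out either of these 2 embryos brought differences of other conditions past the threshold. They were those of ph-d at 30 minutes (adjusted p at most 0.00454), ph-d at 70 minutes (0.0140) and ph-d in control C14L (0.0149), each over control C12. They were also those of pho at 30 minutes (0.0138), at 50 minutes and in control C14L (0.0119), of Su(z)12 at 30 and 50 minutes, and of Pc in arrested C12-70min over control C14L (0.0112).

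At 30 and 50 minutes of arrest most of the 10 genes stood below control C12, and at 70 minutes 5 of them did. At 30 minutes 7 were lower and 2 (ph-p and pho) higher, beside 38.0% lower and 15.5% higher of all genes. At 50 minutes 6 were lower and the same 2 higher, beside 40.8% lower and 22.5% higher of all genes. At 70 minutes 5 were lower (ph-d, Psc, esc, Su(z)12 and Scm) and 3 higher (ph-p, E(z) and pho), beside 44.2% lower and 26.8% higher of all genes. The share at 70 minutes is thus close to that of all genes, whereas at 30 minutes the median log2 difference of the 10 genes was -1.08 and that of all genes -0.12.

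With centred columns the split was 3 higher and 6 lower at 30 minutes (28.9% and 33.6% of all genes), 3 higher and 5 lower at 50 minutes (40.3% and 34.6%), and 5 higher and 2 lower at 70 minutes (45.6% and 32.4%), where the median of the abundant genes lay 0.65 below control C12. At 70 minutes the direction of the count therefore turns with the scaling. esc and Scm were the genes that remained lower there. In the limma fit 2 of the 10 genes were lower and 0 higher at 30 minutes, against 17.9% lower and 2.44% higher of 6772 genes, and 6 of the 10 had an unadjusted p under 0.05, as had 42.2% of all genes tested. At 50 minutes it was 3 lower (ph-d, esc and Scm) and 1 higher (Sce), against 29.5% lower and 11.7% higher of 6746 genes. At 70 minutes it was 2 lower (esc and Scm) and 1 higher (ph-p) of the 8 genes with solved reads, against 40.5% lower and 16.2% higher of 5637 genes.

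Between 50 and 70 minutes of arrest, 6 of the 10 genes were higher at 70 minutes and 0 lower, beside 21.6% higher and 15.9% lower of all genes. They were ph-p (3.71-fold), E(z) (3.70-fold), Su(z)12 (3.01-fold), Pc (2.52-fold), Scm (2.23-fold) and ph-d (2.22-fold). The median log2 difference was 1.09 over the 10 genes and 0.02 over all genes. Of the 8 genes with solved reads, these 6 had both embryos at 70 minutes above both embryos at 50 minutes, and Psc and esc did not. The same held for 29.8% of all 5727 genes with solved reads. With the columns centred, 7 were higher and 0 lower, with 30.3% higher and 9.01% lower of all genes. None of these differences passed limma, which called 0 of the 8 genes tested, with 2 at an unadjusted p under 0.05 (ph-p and Scm) beside 18.9% of all genes tested, and called 0.908% of 5727 genes higher and 1.89% lower. This comparison was added after the values had been seen.

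Arrested C12-70min, the latest arrested condition, was also set against control C14L. Of the 10 genes 7 were lower in the arrested embryos and 2, Sce and pho, were higher. Beside them 45.3% of all genes were lower and 24.2% higher. After centring it was again 7 lower and 2 higher, beside 43.2% lower and 26.5% higher of all genes. Without centring the median log2 difference was -1.85 over the 10 genes and -0.36 over all genes. Among the 10 genes those of PRC2 were the furthest apart: the arrested mean was 5.92% of control C14L for Su(z)12, 6.37% for esc and 9.92% for E(z). Outside the 10, the PRC2 subunit gene Caf1-55 had 654 CPM in arrested C12-70min and 454 CPM in control C14L. The PRC2 accessory gene Pcl had 51.8 and 180 CPM there. Among the PRC1 genes it was 18.7% for ph-d, 19.1% for Pc, 42.2% for ph-p, 70.7% for Psc and 159.8% for Sce. Both arrested embryos lay below both control embryos for 7 of the 8 genes with solved reads, Psc being the exception, as for 61.4% of 5697 genes. limma called 5 of the 8 genes tested lower (ph-d, E(z), esc, Su(z)12 and Scm) and 0 higher, against 35.3% lower and 10.6% higher of 5697 genes. The 2 genes that could not be tested, Sce and pho, are the ones whose means were higher, so the 0 follows from which genes had solved reads.

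**Figure D3:**
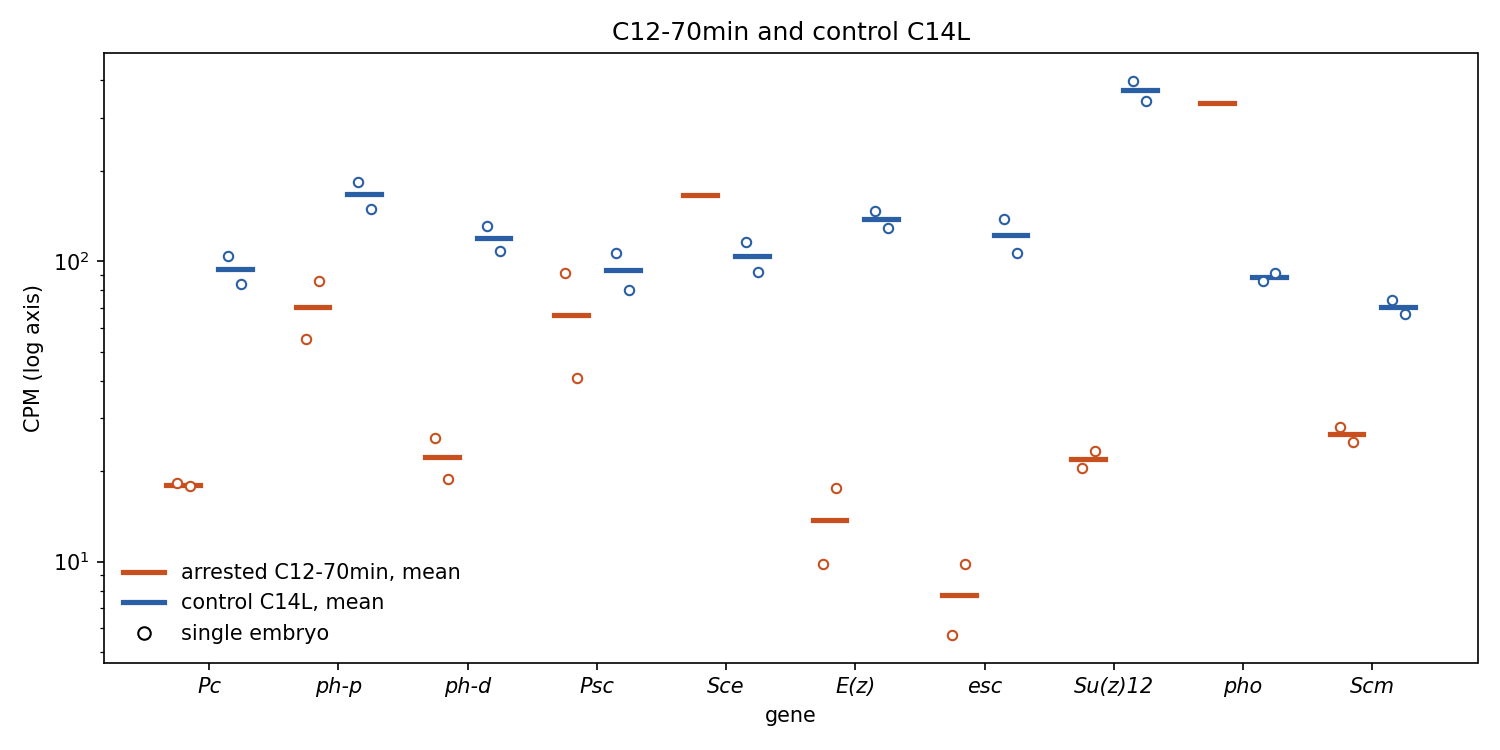
CPM on a log axis of the 10 genes in arrested C12-70min (left of each pair) and control C14L (right of each pair), with bars for the authors' means and circles for single embryos. The embryos of Sce and pho at C12-70min have more than 1 solution and are not drawn. For Pc, ph-p, ph-d, E(z), esc, Su(z)12 and Scm both arrested embryos lie below both control embryos.

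Among 21 other Polycomb group and partner genes, 10 were lower and 3 higher in arrested C12-70min than in control C12, beside 44.2% lower and 26.8% higher of all genes, and after centring 8 were lower and 9 higher, beside 32.4% and 45.6%. The share lower is close to that of all genes. The uncentred median over the 21 was -0.55 on the log2 scale, beside -0.29 for all genes. In control C14L 7 were lower and 7 higher than in control C12, beside 37.8% lower and 32.9% higher of all genes. Against control C14L, 13 of the 21 were lower in arrested C12-70min and 3 higher, beside 45.3% lower and 24.2% higher of all genes. The median was -1.06, beside -0.36 for all genes. After centring 13 were lower and 4 higher, beside 43.2% lower and 26.5% higher of all genes. The paralogs and partners of the 10 genes took courses of their own. phol, the paralog of pho, had means of 13.7 CPM in arrested C12-70min and 52.7 CPM in control C14L, against 260 CPM in control C12, where pho was higher in the arrested embryos and lower in control C14L. Sfmbt, the partner of pho, had 466 CPM in arrested C12-70min and 119 CPM in control C14L, against 387 CPM in control C12. Pcl, a PRC2 accessory protein, had 51.8, 180 and 117 CPM in the same conditions. Caf1-55, the histone-binding subunit of PRC2 that other chromatin complexes share, stayed between 454 and 689 CPM throughout. The paralogs of Psc and esc were scarce, with a mean over the conditions of 2.75 CPM for Su(z)2 and 1.41 CPM for escl.

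Furthest below control C12 at 70 minutes were RYBP, a partner of Sce in variant PRC1, with 3.58 CPM in arrested C12-70min against 173 CPM in control C12, and phol. Furthest above were calypso, the H2A deubiquitinase, with 9.53 CPM in arrested C12-70min and 76.8 CPM in control C14L against 0.647 CPM in control C12, and sxc, which encodes the O-GlcNAc transferase, with 497 CPM in arrested C12-70min and 151 CPM in control C14L against 228 CPM in control C12. These are differences of means with no test.

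Trithorax group genes counteract Polycomb silencing. Of 16 of them, with the H3K27 demethylase gene Utx among them, 7 were higher and 6 lower at 70 minutes of arrest than in control C12, beside 26.8% higher and 44.2% lower of all genes, and 10 and 4 after centring, beside 45.6% and 32.4%. Against control C14L 4 were higher and 8 lower, beside 24.2% and 45.3% of all genes. Furthest above control C12 was tna, with 21.9 CPM in arrested C12-70min and 175 CPM in control C14L against 0.0653 CPM in control C12, followed by kto, a Mediator subunit, with 41.3 CPM in arrested C12-70min, 220 CPM in control C14L and 14.2 CPM in control C12. Furthest below were skd, the Mediator partner of kto, with 26.8 CPM in arrested C12-70min, 281 CPM in control C14L and 367 CPM in control C12, and the bromodomain gene fs(1)h, with 92.0, 614 and 786 CPM in those 3 conditions.

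**Figure D4:**
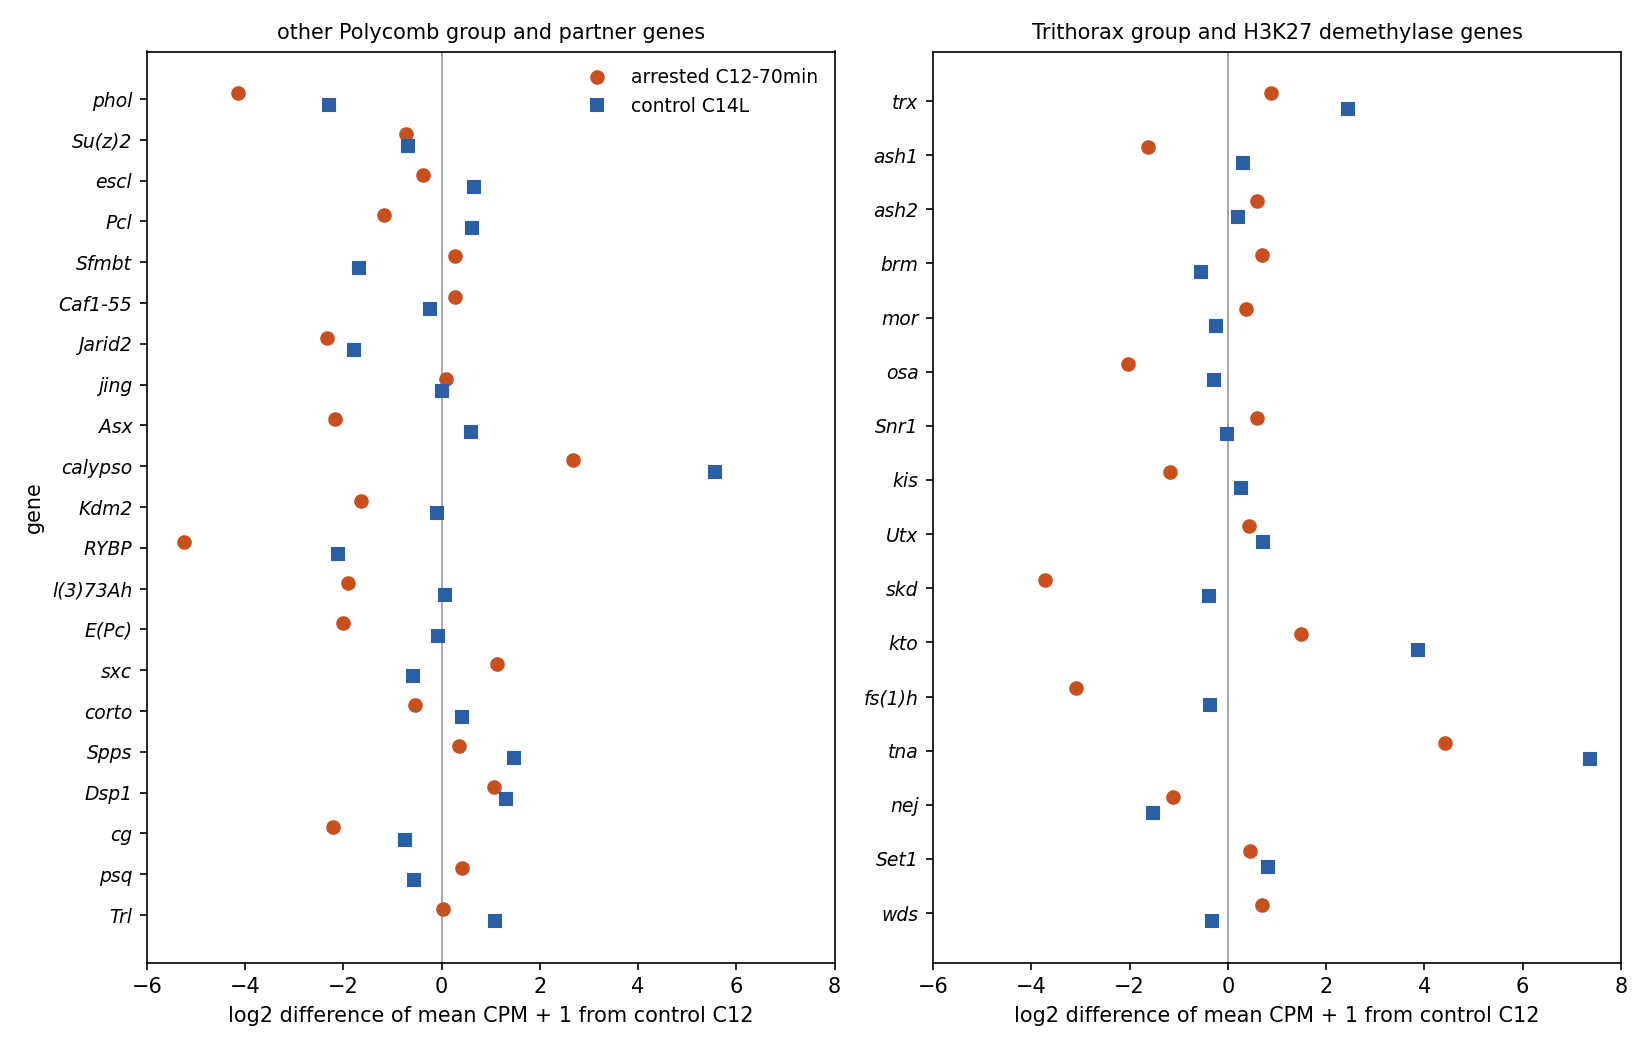
Log2 difference of mean CPM plus 1 from control C12 for 21 other Polycomb group and partner genes (left) and 16 Trithorax group and H3K27 demethylase genes (right), with circles for arrested C12-70min and squares for control C14L. Both marks of a gene share control C12. RYBP and phol lie furthest to the left at C12-70min and tna furthest to the right.

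Genes that Polycomb proteins silence were also read, as 10 homeotic and segment genes, 9 of which had a mean of at least 1 CPM. Their summed means were 2.51, 7.51, 14.2 and 22.6 CPM at 15, 30, 50 and 70 minutes of arrest. In control C12, C13, C14E and C14L the sums were 0.569, 0.825, 26.7 and 315 CPM. At 70 minutes 8 of the 9 were past the fold above control C12, beside 26.8% higher of all genes. The highest control C12 level among them was 0.199 CPM (inv), so none could be called lower than control C12. Against control C14L 8 of the 9 were lower and inv was higher, beside 45.3% lower of all genes. However, lab, Scr, Antp and Ubx reached a mean of 1 CPM only through control C14L, so for them the direction follows from the filter. The gene that the filter left out, pb, had 0.818 CPM in arrested C12-70min and 0.295 CPM in control C14L. Furthest above control C12 at 70 minutes were abd-A, with 5.54 CPM in arrested C12-70min and 46.4 CPM in control C14L against 0.155 CPM in control C12, and Dfd, with 3.63 and 38.7 CPM in those conditions and listed at 0 in control C12. At 70 minutes none of these 10 homeotic and segment genes was below control C12, where their levels left almost no room for a fall.

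The profile of ph-p over the 8 means was nearest to those of sli, Ndae1 and ckn among 5576 candidate genes with a mean of at least 10 CPM. The distances were 0.87, 1.20 and 1.24 on the log2 scale, after each profile had been centred on its own mean. All 3 share with ph-p the low level in control C13 and the higher level at 30 minutes of arrest than in control C12, and for sli the means were 110 CPM at 30 minutes and 386 CPM at 70 minutes of arrest against 42.9 CPM in control C12. The profile of Sce was nearest to those of CG8545, SF1 and Mlf, at distances of 0.15, 0.17 and 0.17. None of the 6 is a Polycomb group gene.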

How the data were processed

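Polyadenylated RNA of single embryos was sequenced. Per the submitters' processing notes, the authors used Trim Galore 0.6.0, STAR 2.5.3a and featureCounts of Subread 1.6.0 with the dm6 build. The deposited values are the log2 of the mean CPM of a condition plus 1, for 17735 genes. The labels list 19 embryos, of which 18 are in the columns. The authors omitted 1 embryo of control C12. No other column of values was present (0). DESeq2 is named in the notes and was not used here.

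The 10 genes, the lists and the named genes (the 10, the 2 highest and 2 lowest of each list from control C12 to C12-70min, and fixed partners) were chosen with earlier results of these data known. Whole reads of embryos were solved for in the 6 conditions with 2 embryos, up to 1000 CPM, where 1 pair fits 9 decimals, and for E(z), Pc and ph-p in control C13 (3 embryos, under 5 CPM). Library totals were read from the step sizes of the columns, and 200 of 200 test values were solved in each 2-embryo condition. Reads were recovered for 65.1% of genes over 10 CPM in C12-70min and 89.3% to 93.0% in the other 5. Condition means were compared with no test, and a fold of 1.5 was called over genes with a mean of at least 1 CPM. limma 3.58.1 (R 4.3.3) was fitted to log2(CPM + 1) of 12 embryos with a trended prior and Benjamini-Hochberg adjustment over all genes of a contrast. It met variances of 0. Whether the embryos shared a clutch is not given, so p-values measure the spread between single embryos. Comparisons with control C12 share those embryos. Alternatives were pseudocounts of 0.1 and 0.001, centring, a fold of 2, other filters and leaving out each embryo. Positions and exon lengths came from Ensembl 115, with a length for 99.4% of genes. Python 3.11.15, numpy 2.4.6, pandas 2.3.3 and matplotlib 3.10.9 were used, and the fits were tested on simulated data.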

Additional observations from a re-analysis of the deposited data

How the results depend on the processing

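Of the counts over condition means, that of the C12-15min libraries moved from 0 to 1 (E(z), higher) with pseudocounts of 0.1 and 0.001. Of all genes 11.6% and 12.8% were higher there with these pseudocounts. With a fold of 2 the count of control C14L over C14E was 3, against 7. These were 2 higher and 1 lower, beside 28.5% higher and 13.7% lower of all genes. The counts of all other comparisons were within 1.5 times of the value given. With low genes kept in, the percentage of all genes called was lower by over 1.5 times in each of the 10 comparisons. Centring turned 2 of the log2 differences of single genes, both at C12-70min against control C12: Psc to 0.057 and Su(z)12 to 0.025.

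In the limma fit, leaving out each embryo in turn gave 3 to 7 of the 10 genes in control C14L over control C12, 0 to 5 at 30 minutes, 0 to 6 at 50 minutes, 3 to 4 at 70 minutes and 2 to 6 against control C14L. The last 2 of these ranges, both for arrested C12-70min, are out of the 8 genes tested there and not 10. Sce and pho were not tested in them, since their reads were not solved at C12-70min. Where a condition kept 1 embryo, it was taken to vary like the others. With no filter on low values the counts were 3 in control C14L over control C12, 0 at 30 minutes and 2 at 50 minutes, against 5, 2 and 4. For C12-70min over control C14L the count was then 3, against 5. With centred columns it was 4 at 30 minutes, against 2. The share of all genes called in these alternative fits is not given here, so these counts cannot be set beside it. No paired analysis was possible because the deposited columns carry no replicate number. Of 1024 alternative fits of a single gene and contrast, 64 lost a call and 29 gained one. The cause of these changes was not tested.

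The precision is limited by 2 embryos a condition, by the abundant genes left unsolved at C12-70min, and by 2 unlike embryos at C12-15min. At C12-70min 65.1% of genes over 10 CPM were solved.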
